A study of Mus musculus with 2 samples.

Results

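Alveolar type 2 (AT2) cells, the surfactant-making epithelial cells of the alveolus, were examined in single-cell RNA-seq of sorted mouse lung cells. A barcode was taken as an AT2 cell when Sftpa1, Sftpb, Sftpd, Napsa and Slc34a2 together made up at least 1% of its UMIs (unique molecular identifiers, each standing for a captured transcript) and when Cdh5, Pecam1 and Cldn5, genes of endothelial cells, summed to at most 2 UMIs. Barcodes also needed at least 500 detected genes and at most 10% of UMIs from mitochondrial genes. The rule gave 1360 AT2 cells among 4071 barcodes kept. They were 575 of 1326 in the KO library, or 43.4% (40.7 to 46.1), and 785 of 2745 in the WT library, or 28.6% (26.9 to 30.3). These 5 genes therefore describe the cells and are no finding about them.

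The study compared 1 library labelled KO with 1 labelled WT in mice that model hereditary hemorrhagic telangiectasia type 2, in which fragile, malformed vessels are inherited. Both came from the lungs of C57BL/6J mice aged 10 to 12 weeks. The sort had kept cells with VE-cadherin, an adhesion protein of endothelial cells, and without CD45, a protein of leukocytes, and the labels call both samples endothelial. How AT2 cells came through this sort was not tested, and their share of barcodes does not measure their share of the lung. The labels name neither the gene knocked out, nor what drove its deletion, nor how many animals were pooled. With 1 library per group, no difference between KO and WT has a replicate check and none was tested. Levels are given as CPM, the UMIs of a gene scaled to 1e6 UMIs summed over the AT2 cells of a library, and the 95% intervals given with levels, ratios and shares cover counting error only.

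AT2 cells secrete surfactant, a film of lipid and protein that lowers surface tension and keeps alveoli open. They package it in lamellar bodies, for which they make fatty acids and cholesterol, and they also take part in lung defence by secreting lysozyme and collectins and by carrying MHC class II molecules, which are otherwise mostly found on immune cells. AT2 cells renew themselves after injury and give rise to the flat AT1 cells of the gas-exchange surface, passing through a transitional state known for keratin 8, stratifin and galectin 3.

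Sequencing of the AT2 cells was deep, with a median of 19687 UMIs and 3999 genes per cell in KO and 17636 UMIs and 3781 genes in WT, and 10691415 and 13395567 UMIs in all. The median mitochondrial share was 4.91% in KO and 4.89% in WT. The surfactant share of UMIs had a median of 4.56% in KO and 4.94% in WT AT2 cells. Near the limit of 1%, 4 KO and 9 WT members lay under 1.5%, the lowest at 1.21% in KO and 1.01% in WT, while 5 KO and 35 WT barcodes outside lay between 0.5% and 1%, the highest at 0.830% in KO and 0.999% in WT. A further 13 KO and 63 WT barcodes met the surfactant limit but had more than 2 endothelial UMIs and were left out. The matrices shared 12 barcode sequences, none of them (0) among AT2 cells.

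The libraries differed in the sex of their cells, which bears on every comparison between them. In the KO library, 82 AT2 cells had UMIs of Xist, the RNA that silences an X chromosome in female cells, and none of the Y-linked genes Ddx3y, Uty, Kdm5d and Eif2s3y. Another 389 KO AT2 cells had Y-linked UMIs alone, 10 had both kinds and 94 had neither. In the WT library, 728 AT2 cells had Xist alone, 1 had Y-linked UMIs alone, 3 had both and 53 had neither. The KO library thus held cells of both sexes, and so of more than 1 animal. Median depth was 20568 UMIs in KO Xist-only cells, 20019 in KO Y-only cells and 17770 in WT Xist-only cells. Sex and animal cannot be told apart here, so the 82 and 389 KO cells are given beside the 728 WT cells as separate values for many of the genes and lists below.

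The cells carried the AT2 programme beyond the 5 genes of the rule. Sftpc, which encodes the surfactant protein made by AT2 cells alone in the adult lung (chromosome 14, 70520949 to 70524081, minus strand of GRCm38), stood at 186451 CPM in KO and 182015 CPM in WT AT2 cells. In endothelial barcodes, defined by under 1% surfactant UMIs and more than 2 UMIs of Cdh5, Pecam1 and Cldn5 (507 in KO and 1536 in WT), it stood at 1494 CPM in KO and 2765 CPM in WT. The surfactant lipid transporter Abca3 stood at 959 and 1044 CPM and the lamellar body protein Lamp3 at 1384 and 1607 CPM in KO and WT AT2 cells. Cxcl15, a chemokine of lung epithelium, stood at 5709 CPM in KO and 6433 CPM in WT. All 13 AT2 markers, among them the 5 genes of the rule, were detected in both libraries.

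**Figure D1:**
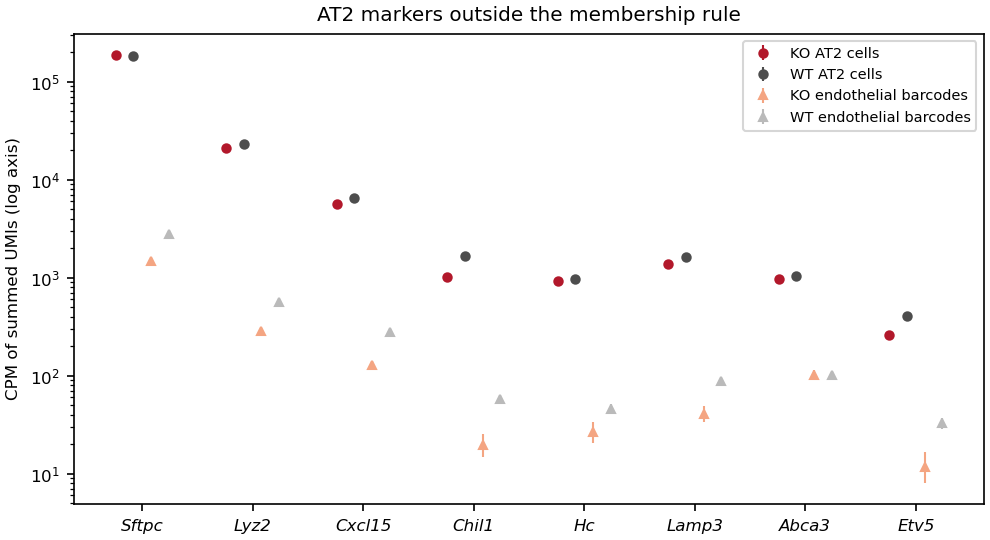
CPM of summed UMIs (log axis) for 8 AT2 markers that the membership rule did not use, in KO and WT AT2 cells (circles) and in KO and WT endothelial barcodes (triangles); vertical lines are 95% Poisson intervals. Each marker stands higher in AT2 cells than in endothelial barcodes of the same library, as for Sftpc at 186451 CPM in KO AT2 cells and 1494 CPM in KO endothelial barcodes.

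Markers of other cell types were low, but some differed between the libraries. The 13 endothelial markers summed to 87.5 CPM in KO and 197 CPM in WT AT2 cells, against 21331 and 24036 CPM in the endothelial barcodes. They include Cdh5, Pecam1 and Cldn5, which were capped in AT2 cells and required in endothelial barcodes, so selection set part of this contrast. Fibroblast markers (8) summed to 55.6 CPM in KO and 145 CPM in WT, and club cell markers (5) to 747 CPM in KO and 411 CPM in WT. The club cell sum was 317 CPM in KO Xist-only, 892 CPM in KO Y-only and 419.99 CPM in WT Xist-only cells. Few cells carried much of it in KO. The log2 ratio of KO over WT for the club cell marker Scgb1a1 was 0.85, and 0.23 without the 5 highest cells per library. Erythroid markers (5) summed to 629.7 CPM in KO and 52.3 CPM in WT, and 5 cells held 95.1% of the Hbb-bs UMIs in KO and 4.11% in WT. The erythroid sum was 3769 CPM in KO Xist-only, 30.3 CPM in KO Y-only and 49.7 CPM in WT Xist-only cells. The leukocyte markers (5) summed to 0.187 CPM in KO, where Ptprc, Laptm5, Tyrobp and Cd52 were at 0, and to 1.79 CPM in WT. Basal cell markers (Krt5, Trp63, Krt14) and the T and NK cell markers in the files (Cd3e, Cd3d, Nkg7) were at 0 in both, where a count of 0 allows up to 0.281 CPM in KO and 0.224 CPM in WT for a gene. Acvrl1, the receptor gene whose human counterpart is mutated in this disease type, is an endothelial gene and had 35 UMIs (3.27 CPM) in KO and 199 UMIs (14.9 CPM) in WT AT2 cells. It stood at 1026 CPM in KO and 1422 CPM in WT endothelial barcodes, so its AT2 level says nothing about a deletion.

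Most genes stood at like levels in KO and WT AT2 cells. Of 7338 genes averaging 10 CPM or more over the libraries, 127 (1.73%) were at least 1.5-fold higher and 175 (2.38%) at least 1.5-fold lower in KO, and the median log2 ratio was 0.00. Of the 23 gene lists examined, which were chosen with earlier results of these data known, a few held many members past 1.5-fold. MHC class II (6 of 6 members lower, median log2 ratio -1.26), interferon response (8 of 10 lower, -0.94), MHC class I presentation (8 of 12 lower, -0.82) and fatty acid and cholesterol synthesis (10 of 24 lower, -0.51) stood lower in KO, with no member (0) of these lists higher. Transitional and injury-response genes stood higher (9 of 13, none (0) lower, 0.86), and AT1 markers had a median of 0.44 with 2 of 9 members higher and 1 lower.

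**Figure D2:**
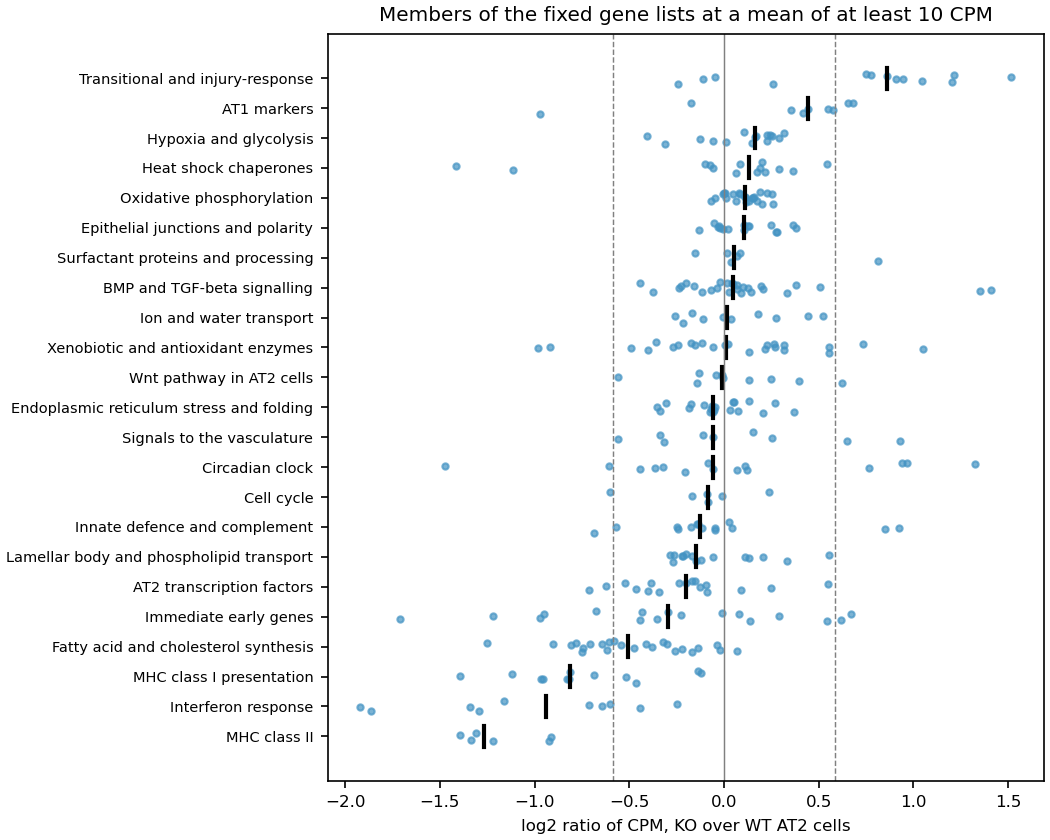
Log2 ratio of CPM, KO over WT AT2 cells, for each member of the 23 gene lists with a mean of at least 10 CPM (points); the black bar is the list's median and the dashed lines mark 1.5-fold. MHC class II members all lie left of the lower line (median -1.26) and 9 of 13 transitional and injury-response genes lie right of the upper one (median 0.86).

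Of 6 measured genes for surfactant proteins and their processing, the rule used 4, whose levels are given as a description. Sftpb and Sftpd, which encode the film-forming protein B and the collectin D, stood at 10946 and 5436 CPM in KO and 10828 and 5186 CPM in WT cells. Sftpa1 stood at 23140 CPM in KO and 25737 CPM in WT, and Napsa, a protease that processes surfactant protein B, at 2381 and 2243 CPM. The other two were Sftpc, given above, and Ctsh, a cathepsin that also processes surfactant proteins. Ctsh stood at 3256 CPM (3221 to 3289.9) in KO and 1850.5 CPM (1828 to 1874) in WT, a ratio of 1.76 (1.73 to 1.79). It stood at 5340.3 CPM in KO Xist-only, 2808 CPM in KO Y-only and 1859.9 CPM in WT Xist-only cells, so that both kinds of KO cell lay above WT. Of 15 measured lamellar body and phospholipid transport genes, among them the rule gene Slc34a2, none (0) passed 1.5-fold (median -0.15). Over WT Xist-only cells, KO Xist-only cells had 2 of the 15 higher (6.91% of all 7277 genes were) and 2 lower (10.9% were), and KO Y-only cells had none (0) past 1.5-fold. The higher pair was the antioxidant Prdx6, at 848 CPM in KO Xist-only and 439.6 CPM in WT Xist-only cells, and the lipid exporter Abca1, at 30.0 and 13.3 CPM. For the lower pair, the phospholipid flippase Atp8a1 stood at 242 CPM and Lamp3 at 898 CPM in KO Xist-only cells, with 460.3 and 1492 CPM in KO Y-only and 508 and 1601 CPM in WT Xist-only cells.

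Most genes of AT2 identity stood near their WT levels. Nkx2-1, the master regulator of lung epithelium, stood at 307 CPM in KO and 328 CPM in WT, and Cebpa, which drives AT2 maturation, at 289 and 321 CPM. Of 17 measured AT2 transcription factors, 2 were lower in KO and none (0) higher (median -0.20), against 2.38% and 1.73% of all 7338 genes. Etv5, a factor needed to keep the AT2 state, stood at 262 CPM (252 to 271) in KO and 402 CPM (392 to 413) in WT, a ratio of 0.650 (0.621 to 0.680). It stood at 225 CPM in KO Xist-only and 271 CPM in KO Y-only cells against 401 CPM in WT Xist-only cells, and passed 1.5-fold in the Xist-only cells alone. Over WT Xist-only cells, 5 of 17 factors were lower and 1 higher in KO Xist-only cells (10.9% and 6.91% of all genes; list median -0.21), and 1 of 17 was lower in KO Y-only cells (2.27% of all 7345 genes; -0.17).

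MHC class II genes were lower in KO AT2 cells throughout. Cd74, the invariant chain that guides class II molecules to the peptide-loading compartment, stood at 1518 CPM (1495 to 1542) in KO and 2885 CPM (2856 to 2914) in WT, a ratio of 0.526 (0.517 to 0.536). H2-Aa, the class II alpha chain (chromosome 17, 34282744 to 34287823, minus strand), stood at 299.9 CPM (289.6 to 310.4) in KO and 758 CPM (743 to 773) in WT, a ratio of 0.396 (0.380 to 0.412). H2-Ab1, its beta chain partner, stood at 203 CPM in KO and 502 CPM in WT. The peptide exchange factors H2-DMa and H2-DMb1 stood at 21.7 and 37.3 CPM in KO and at 50.6 and 70.2 CPM in WT cells, and H2-Eb1 at 6.45 CPM in KO and 16.9 CPM in WT. All 6 were lower in both kinds of KO cell and lowest in the Xist-only cells. H2-Aa stood at 148 CPM in KO Xist-only, 324 CPM in KO Y-only and 759 CPM in WT Xist-only cells, and Cd74 at 916, 1600.4 and 2898 CPM in the same order. Among other cells that carry class II molecules, macrophage markers summed to 5.24 CPM in KO and 5.08 CPM in WT, and the 3 B cell markers to 19.3 CPM in KO and 23.1 CPM in WT. All of the B cell sum came from Cd79b, while Cd79a and Ms4a1 were at 0 in both.

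The class II difference ran through the whole population of cells. With every cell reduced at random to 5000 UMIs (thinned), for which 57 KO and 41 WT cells were too shallow, the summed class II UMIs per cell had a median of 8 in 518 KO and 20 in 744 WT cells. The medians were 4 in 81 KO Xist-only and 9 in 375 KO Y-only cells. A level above the WT 90th percentile of 38 UMIs was seen in 0.965% of KO and 9.81% of WT cells, where the cutoff itself sets the WT share. H2-Aa was detected in 55.6% of KO and 88.7% of WT AT2 cells thinned, and in 73.7% and 94.9% unthinned, beside 1.83% of KO and 6.47% of WT endothelial barcodes thinned. Over cells, Cd74 followed H2-Aa with a correlation of 0.65 in KO and 0.65 in WT (518 and 744 thinned cells of 1 library each, scaled to the same depth).

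Class I presentation genes were lower to a like degree in both kinds of KO cell. B2m, the light chain of all class I molecules, stood at 156 CPM (148 to 163) in KO and 337 CPM (328 to 347) in WT, a ratio of 0.461 (0.436 to 0.488), with 125 CPM in KO Xist-only, 158 CPM in KO Y-only and 336 CPM in WT Xist-only cells. The heavy chain genes H2-K1 and H2-D1 stood at 322 and 772 CPM in KO and 623 and 1240.4 CPM in WT. Class I heavy chains are close copies, so reads may be split among them. Among the immunoproteasome subunits, which cut peptides for class I, Psmb8 stood at 41.9 CPM in KO and 73.6 CPM in WT, and Psmb9 at 7.58 and 19.9 CPM. The peptide transporter Tap1 stood at 8.51 CPM in KO and 15.01 CPM in WT, while the loading chaperone Tapbp stood at 106 and 117 CPM. The list's median was -0.81 for KO Xist-only and -0.80 for KO Y-only cells, both over WT Xist-only cells, which the 2 ratios share.

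Interferon-response genes were lower in KO AT2 cells too, at low levels. Ifitm3, which blocks virus entry, stood at 14.8 CPM (12.6 to 17.3) in KO and 55.9 CPM (52.0 to 60.1) in WT, a ratio of 0.264 (0.221 to 0.314). Isg15, a ubiquitin-like protein, stood at 8.51 CPM in KO and 31.0 CPM in WT, and Bst2, which tethers budding virus, at 26.6 and 67.4 CPM. Stat2 and Irf9, parts of the factor that switches these genes on, stood at 11.4 and 21.1 CPM in KO and 28.0 and 33.0 CPM in WT. Each was low in both kinds of KO cell, as Bst2 was at 25.9 CPM in Xist-only and 27.0 CPM in Y-only cells against 67.5 CPM in WT. Endothelial barcodes held far more of these transcripts, and there 1 of 22 members was higher and 2 were lower (4.23% and 7.35% of all 8703 genes were), with Ifitm3 at 1676 CPM in KO and 1497 CPM in WT and a list median of 0.11. Because endothelial markers were also lower in KO AT2 cells, the ratios were taken again over cells without any UMI of Cdh5, Pecam1 and Cldn5 (426 in KO and 461 in WT). The list medians were then -0.93 for interferon response, -0.82 for class I and -1.24 for class II. With CPM averaged over cells, which gives shallow cells equal weight, the log2 ratio of Ifitm3 was -0.48, against -1.92 from summed UMIs, and the list median was -0.57.

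Ifi27l2a, an interferon-induced gene (chromosome 12, 103442167 to 103443680, minus strand), stood furthest from its WT level among the ranked genes. It had 10 UMIs in KO AT2 cells, or 0.935 CPM (0.449 to 1.72), and 1587 UMIs in WT AT2 cells, or 118 CPM (113 to 124). In WT its UMIs were concentrated in few cells. It was detected in 27.6% of WT cells (17.7% thinned), the tenth of cells with most of it held 86.3% of its thinned UMIs and the highest cell had 169. In KO it was detected in 1.22% of cells (0.193% thinned), and no cell had more than 3 UMIs. Endothelial barcodes stood at 5.15 CPM in KO and 6.52 CPM in WT. The gene has close copies in the mouse genome, to which reads may also have gone.

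Interferon is known to switch genes on through a short promoter element, which was looked for in members of the gene lists. Windows from 250 bases before to 50 after each start (RefSeq, GRCm38.p6) were searched on both strands for the interferon-stimulated response element, spelled GAAANNGAAA, where overlapping matches were counted. It was found in 3.99% of 27025 genes with a window, and in 11 of 20 interferon list genes and 3 of 13 class I genes. These counts take in genes under the 10 CPM minimum in AT2 cells, such as Ifit1 and Rsad2. Of the 8 interferon list genes lower in KO, a match was found for Ifitm3, Isg15, Stat2 and Bst2. Stretches around it are shown for genes that were lower in KO AT2 cells, 5′ to 3′ on the gene's strand, with the matches in capitals.
Bst2, chr8:71537553-71537642, minus strand: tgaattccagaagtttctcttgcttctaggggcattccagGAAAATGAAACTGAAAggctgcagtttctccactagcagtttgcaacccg
Isg15, chr4:156200847-156200936, minus strand: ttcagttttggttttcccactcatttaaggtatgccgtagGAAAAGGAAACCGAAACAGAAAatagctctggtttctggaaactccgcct
B2m, chr2:122147508-122147597, plus strand: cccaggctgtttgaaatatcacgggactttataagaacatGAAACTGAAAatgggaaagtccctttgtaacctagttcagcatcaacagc
Bst2 held 2 overlapping matches and Isg15 held 3, while B2m held 1. A match is a description of the letters and was not tied to binding in these cells.

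Class II promoters carry a CCAAT box (Y box), bound by the factor NF-Y as part of the module that recruits the class II transactivator. CCAAT, or ATTGG on the other strand, is short and was found in 41.1% of genes with a window, so that a match says little by itself. It was found in 6 of 7 class II list genes, 10 of 13 class I genes, 12 of 16 fatty acid and cholesterol genes and 5 of 20 interferon list genes with a window. Stretches are shown for class II genes and sterol genes that were lower in KO AT2 cells, with the matches in capitals.
H2-Aa, chr17:34287822-34287911, minus strand: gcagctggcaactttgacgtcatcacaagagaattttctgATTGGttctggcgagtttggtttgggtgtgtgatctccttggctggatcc
H2-DMb1, chr17:34153090-34153179, plus strand: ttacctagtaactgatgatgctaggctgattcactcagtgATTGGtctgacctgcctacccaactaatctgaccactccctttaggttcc
Insig1, chr5:28071162-28071251, plus strand: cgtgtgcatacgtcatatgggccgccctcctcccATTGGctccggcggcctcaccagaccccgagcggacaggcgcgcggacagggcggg
Idi1, chr13:8885521-8885610, plus strand: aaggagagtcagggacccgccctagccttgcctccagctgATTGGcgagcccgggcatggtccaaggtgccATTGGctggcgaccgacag
In each of the 4 the box stood in the ATTGG orientation, and Idi1 held 2.

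Genes of sterol and fatty acid synthesis were lower in KO AT2 cells, 10 of 24 by at least 1.5-fold, against 2.38% of all 7338 genes. Insig1, which senses sterol and restrains the SREBP factors (chromosome 5, 28071363 to 28078662, plus strand), stood at 39.7 CPM (36.0 to 43.6) in KO and 94.4 CPM (89.2 to 99.7) in WT, a ratio of 0.420 (0.376 to 0.470). Enzymes along the cholesterol pathway followed, with Hmgcs1 at 91.4 and 143 CPM, Idi1 at 76.0 and 133 CPM, and Fdps at 140.3 and 241 CPM in KO and WT. Further along it, Sqle, which makes the first oxygenated sterol precursor, stood at 28.4 CPM in KO and 53.2 CPM in WT, and Msmo1, outside the list, at 39.8 and 83.8 CPM. Scd1, which desaturates fatty acids, stood at 1897 CPM (1871 to 1924) in KO and 3188 CPM (3157 to 3218) in WT. Fatty acid synthase Fasn and the regulators Srebf1 and Srebf2 did not reach 1.5-fold, at 593, 95.9 and 87.1 CPM in KO and 666, 98.2 and 101 CPM in WT.

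Sterol genes were low in both kinds of KO cell and lower in the Xist-only cells. Of the cholesterol enzymes, Idi1 stood at 34.1 CPM in KO Xist-only, 85.5 CPM in KO Y-only and 131 CPM in WT Xist-only cells. Scd1 stood at 2157 CPM in KO Xist-only, 1791 CPM in KO Y-only and 3159 CPM in WT Xist-only cells. Over WT Xist-only cells, 13 of 24 list genes were at least 1.5-fold lower in KO Xist-only cells (median -0.81), against 10.9% of all 7277 genes. In KO Y-only cells 7 of 24 were lower (median -0.43), against 2.27% of all 7345 genes. Both ratios share the WT cells. Within KO, 10 of 24 were lower in Xist-only than in Y-only cells and none (0) higher (8.14% and 5.14% of all 7211 genes were). Per thinned cell, the list summed to a median of 22 UMIs in KO Xist-only, 30 in KO Y-only and 41 in WT cells.

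Transitional and injury-response genes were higher in KO AT2 cells, and their median ratio to WT was larger in KO Xist-only than KO Y-only cells. Sfn, which encodes stratifin, an adaptor protein of epithelial cells (chromosome 4, 133600556 to 133602168, minus strand), stood at 200.2 CPM (192 to 209) in KO and 69.9 CPM (65.5 to 74.6) in WT, a ratio of 2.86 (2.65 to 3.09). Lgals3, which encodes galectin 3 (chromosome 14, 47367751 to 47386160, plus strand), stood at 346 CPM (334 to 357) in KO and 149 CPM (143 to 156) in WT, a ratio of 2.32 (2.20 to 2.45). S100a6, a calcium-binding protein (chromosome 3, 90612882 to 90624181, plus strand), stood at 874 CPM (857 to 892) in KO and 423 CPM (412 to 434) in WT, a ratio of 2.07 (2.00 to 2.14). The keratin genes Krt8, Krt19 and Krt7 stood at 414, 132 and 157 CPM in KO and 241, 68.8 and 86.6 CPM in WT. Areg, a growth factor for the epidermal growth factor receptor, stood at 159 CPM in KO and 69.1 CPM in WT, and the cell cycle inhibitor Cdkn1a at 126 and 67.0 CPM. Krt18, Lcn2, Il33 and Clu stayed under 1.5-fold, with ratios of 1.20, 0.966, 0.844 and 0.927.

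Between the kinds of KO cell these genes differed widely. S100a6 stood at 2934 CPM in KO Xist-only, 397 CPM in KO Y-only and 430.4 CPM in WT Xist-only cells, so that its level was above WT in the Xist-only cells and not in the Y-only cells. Sfn stood at 492, 142 and 69.2 CPM and Lgals3 at 788, 232 and 152 CPM in the same order. For Sfn and Lgals3 the KO Y-only cells lay between the other groups. Krt8 stood at 654, 356 and 243 CPM, and Anxa1, a membrane-binding annexin, at 372, 117 and 98.6 CPM. Within the KO library, 11 of 14 list genes were at least 1.5-fold higher in Xist-only than in Y-only cells, against 5.14% of all 7211 genes, with a median of 1.07. The only member lower was Il33, an alarmin of the epithelium, at 68.3 CPM in KO Xist-only and 210.3 CPM in KO Y-only cells, against 8.14% of all genes. Over the WT Xist-only cells, 11 of 14 were higher in KO Xist-only cells (6.91% of all genes; list median 1.69) and 4 of 13 in KO Y-only cells (1.62% of all genes; 0.50).

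**Figure D3:**
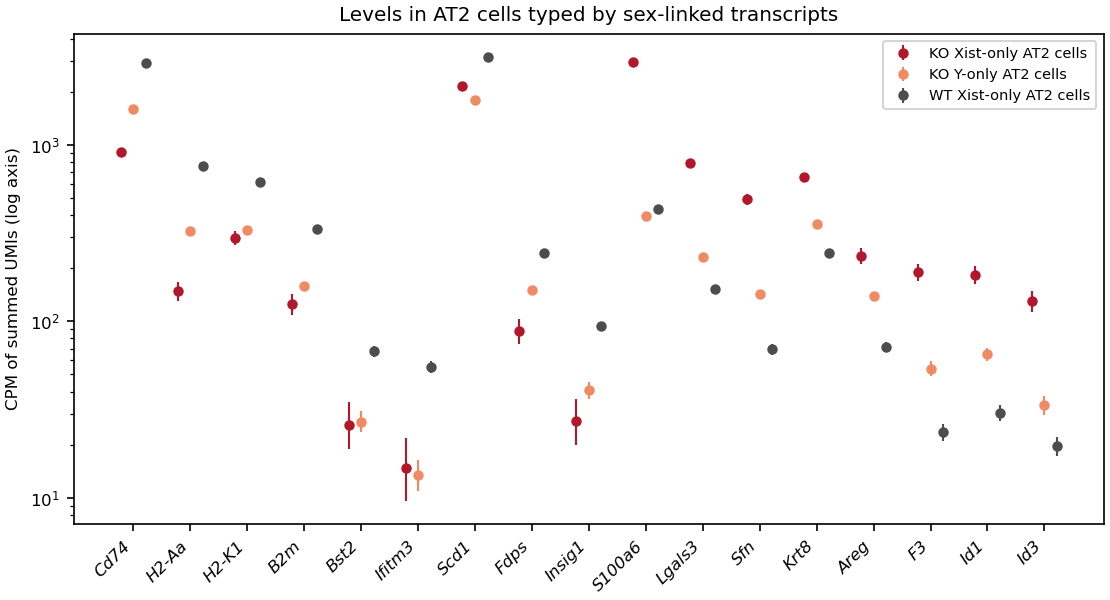
CPM of summed UMIs (log axis) in KO Xist-only (82 cells), KO Y-only (389 cells) and WT Xist-only (728 cells) AT2 cells, with 95% Poisson intervals. MHC, interferon and sterol genes on the left lie lower in both kinds of KO cell than in WT, while S100a6 lies highest in the KO Xist-only cells (2934 CPM, against 397 CPM in KO Y-only and 430.4 CPM in WT cells).

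Per cell, the transitional list set a subset of the KO Xist-only cells apart. Its summed UMIs in thinned cells had a median of 24 in KO Xist-only, 11 in KO Y-only and 11 in WT cells, with upper quartiles of 65, 19 and 17. Above the WT 90th percentile of 27 UMIs lay 48.1% of KO Xist-only, 10.7% of KO Y-only and 9.95% of WT cells. The cutoff itself sets the WT share. The highest cell had 141 UMIs in KO Xist-only, 147 in KO Y-only and 96 in WT cells. S100a6 was detected in 54.3% of KO Xist-only, 22.1% of KO Y-only and 22.3% of WT AT2 cells thinned, beside 19.4% of KO and 22.6% of WT endothelial barcodes. Unthinned, it was detected in 42.8% of KO and 35.7% of WT AT2 cells. Sftpc stood at 176596 CPM in KO Xist-only, 188940 CPM in KO Y-only and 182025 CPM in WT Xist-only cells. The endothelial marker sum was 61.2 CPM in KO Xist-only and 73.9 CPM in KO Y-only cells, against 186 CPM in WT Xist-only cells. This sum takes in Cdh5, Pecam1 and Cldn5, which the rule capped in AT2 cells.

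**Figure D4:**
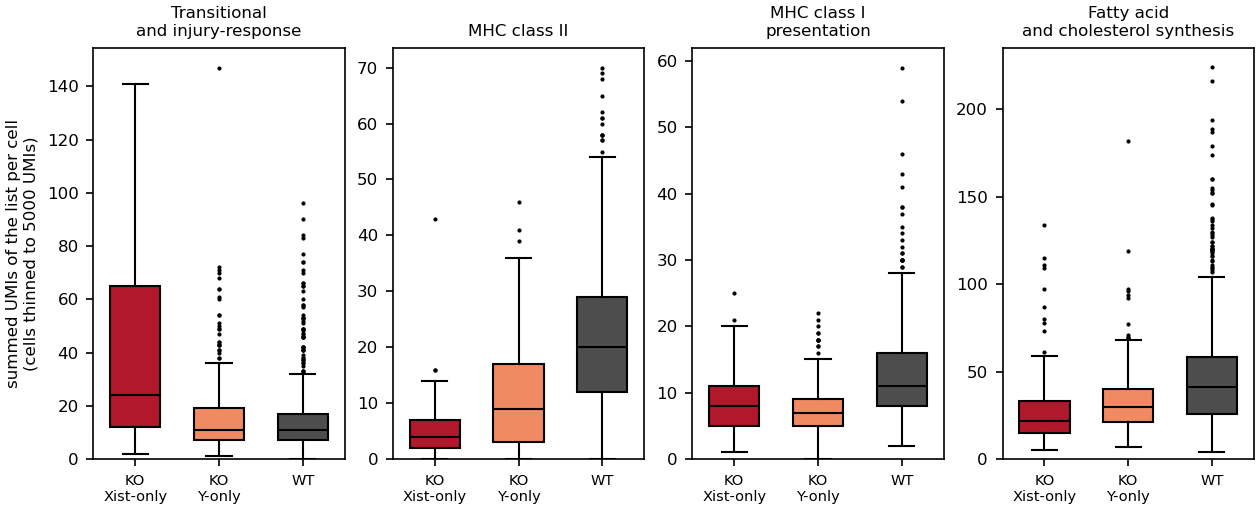
Summed UMIs of 4 gene lists per AT2 cell thinned to 5000 UMIs, in KO Xist-only (81), KO Y-only (375) and WT (744) cells; boxes are quartiles, the line the median, whiskers reach 1.5 times the box and dots are cells beyond. The transitional list has its highest median in KO Xist-only cells (24, against 11 in KO Y-only and 11 in WT), and MHC class II its lowest (4, against 9 and 20).

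Of 9 measured AT1 markers, 2 were higher and 1 lower in KO AT2 cells, against 1.73% and 2.38% of all 7338 genes. Over WT Xist-only cells, 7 of 9 were higher in KO Xist-only cells (median 0.73) and 1 of 8 in KO Y-only cells (median 0.33), against 6.91% and 1.62% of all genes. Ager, the receptor for advanced glycation end products and a marker of AT1 cells, stood at 1178 CPM in KO and 791 CPM in WT, a ratio of 1.49 (1.45 to 1.53), and the water channel Aqp5 at 426 and 314 CPM. Col4a3, a collagen of the alveolar basement membrane, stood at 50.5 CPM in KO and 31.5 CPM in WT and was past 1.5-fold, as it was in both kinds of KO cell. Akap5, the other marker that was higher, had a log2 ratio of -0.033 in KO Y-only over WT Xist-only cells. Hopx stood at 97.7 CPM in KO Xist-only, 54.5 CPM in KO Y-only and 42.3 CPM in WT Xist-only cells. Cav1, the member that was lower, stood at 14.0 CPM in KO and 27.5 CPM in WT and is shared with endothelium, where it stood at 1608 and 1751 CPM. Its log2 ratio of -0.97 turned to 0.15 with CPM averaged over cells. The 9 markers used for AT1 cells summed to 2293 CPM in KO and 1610 CPM in WT AT2 cells.

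Several of the highest ratios belonged to genes outside the transitional list. F3, tissue factor, which starts coagulation (chromosome 3, 121723537 to 121735048, plus strand), stood at 77.0 CPM (71.8 to 82.4) in KO and 23.1 CPM (20.6 to 25.9) in WT, a ratio of 3.33 (2.92 to 3.80). It reached 189.6 CPM in KO Xist-only and 54.0 CPM in KO Y-only cells. Tnfrsf12a, the receptor for the cytokine TWEAK, stood at 87.1 CPM in KO and 33.4 CPM in WT, and Rgcc, a cell cycle regulator, at 947 and 423 CPM. Spink5, a serine protease inhibitor, and Sec14l3, a lipid-binding protein, differed little between the 2 kinds of KO cell. Man2a1, a Golgi mannosidase, was above WT in both kinds and higher in the Y-only cells. Spink5 stood at 252 CPM in KO Xist-only, 229.9 CPM in KO Y-only and 96.5 CPM in WT Xist-only cells. Sec14l3 stood at 78.3, 75.9 and 34.3 CPM and Man2a1 at 56.5, 88.6 and 34.9 CPM in that order. Pmvk, an enzyme of the mevalonate pathway outside the list, was higher at 234 CPM in KO and 112 CPM in WT, opposite to its pathway neighbours above. Tubb2a stood at 123 CPM in KO and 55.6 CPM in WT.

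BMP and TGF-beta genes were examined because the gene mutated in the human disease encodes a receptor of this family. Of 27 measured members, 2 were higher in KO and none (0) lower (median 0.05), against 1.73% and 2.38% of all 7338 genes. Both were inhibitors of differentiation that BMP signalling is known to induce. Id1 (chromosome 2, 152736251 to 152737410, plus strand) stood at 82.8 CPM (77.4 to 88.4) in KO and 31.1 CPM (28.2 to 34.3) in WT, a ratio of 2.66 (2.36 to 2.99), and Id3 at 50.4 CPM in KO and 19.8 CPM in WT, a ratio of 2.55 (2.20 to 2.96). Id1 stood at 183 CPM in KO Xist-only, 65.1 CPM in KO Y-only and 30.3 CPM in WT Xist-only cells, and Id3 at 130.1, 33.4 and 19.7 CPM. The receptors Bmpr1a and Bmpr2 stood at 52.0 and 66.5 CPM in KO and 56.4 and 86.1 CPM in WT, and the ligand Bmp4 at 39.3 CPM in KO and 53.5 CPM in WT. The inhibitory Smads stood at 10.6 CPM (Smad6) and 26.7 CPM (Smad7) in KO and at 10.8 and 24.9 CPM in WT. Id2 stood at 270.3 CPM in KO and 311 CPM in WT, a ratio of 0.869.

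Among signals to the vasculature, 2 of 9 measured genes were higher (median -0.06), against 1.73% of all 7338 genes. Vegfa, the growth factor through which AT2 cells support capillaries, stood at 61.9 CPM in KO and 78.4 CPM in WT, a ratio of 0.790 (0.716 to 0.871). Efnb2 stood at 15.3 CPM in KO and 8.06 CPM in WT and Angptl4 at 13.4 and 8.51 CPM, all near the 10 CPM minimum. Angptl4 was not higher in every kind of KO cell, at 6.48 CPM in KO Xist-only, 15.4 CPM in KO Y-only and 8.66 CPM in WT Xist-only cells. The list median was 0.36 in KO Xist-only and -0.12 in KO Y-only over WT Xist-only cells. In the Wnt list, Nkd1, a feedback inhibitor of the pathway, was the single gene of 10 past 1.5-fold, at 230 CPM in KO and 149 CPM in WT, while Axin2, a target of the pathway, stood at 13.9 and 20.5 CPM (list median -0.01). Nkd1 did not pass 1.5-fold in KO Y-only over WT Xist-only cells, at 215 and 149 CPM.

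Secreted defence genes varied by kind of cell. Set over WT Xist-only cells, 7 of 14 were lower in KO Xist-only cells (median -0.54) and 1 of 14 in KO Y-only cells (median -0.05), against 10.9% and 2.27% of all genes. Chil1, a chitinase-like protein, stood at 1023 CPM (1004 to 1043) in KO and 1644 CPM (1623 to 1666) in WT, a ratio of 0.622 (0.608 to 0.637), and was the single member of 14 that was lower. Cd14, a co-receptor for bacterial lipopolysaccharide, stood at 31.6 CPM in KO and 16.6 CPM in WT. Lyz2, the main lysozyme of AT2 cells, stood at 20915 CPM in KO and 23063 CPM in WT, but at 11316 CPM in KO Xist-only and 23224 CPM in KO Y-only cells. Lyz1 stood at 5172 CPM in KO and 7683 CPM in WT, a ratio of 0.673; it is a close copy of Lyz2, and reads may be divided between them. Scgb1a1, the club cell secretoglobin, stood at 703 CPM in KO and 391 CPM in WT, but 5 cells held 51.8% of its UMIs in KO and 25.7% in WT. Cyp2f2, another club cell gene, stood at 40.7 CPM in KO and 19.6 CPM in WT, and in KO the excess was in Y-only cells (14.1 CPM in KO Xist-only, 47.8 CPM in KO Y-only and 19.96 CPM in WT Xist-only cells). The part of club cells or their RNA in these values was not tested.

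The KO Xist-only cells also stood apart from the KO Y-only cells in genes for secreted proteins and enzymes. Histidine decarboxylase, Hdc, stood at 18.8 CPM in KO Xist-only, 100.5 CPM in KO Y-only and 123 CPM in WT Xist-only cells. Acoxl, an acyl-CoA oxidase-like gene, stood at 66.5, 244 and 262 CPM in the same order, and complement component 5, Hc, at 388, 1045 and 964 CPM. For these genes the KO Y-only cells lay near WT and the KO Xist-only cells at most 0.371 times the Y-only level. The ribonuclease genes Rnase4 and Ang, which overlap in the genome, stood at 351 and 51.2 CPM in KO Xist-only, 994 and 149 CPM in KO Y-only and 1041 and 152 CPM in WT Xist-only cells. Itih4, an inhibitor heavy chain secreted in the acute phase, was low in both, at 35.3 CPM in KO Xist-only, 114 CPM in KO Y-only and 211 CPM in WT Xist-only cells. Hspb1, a small heat shock protein, was higher in the Xist-only cells, at 215 CPM in KO Xist-only, 84.2 CPM in KO Y-only and 91.9 CPM in WT Xist-only cells, and so was the surface antigen gene Ly6c1 at 199.6, 57.3 and 59.0 CPM. The antioxidant Srxn1 stood at 107, 42.0 and 21.8 CPM in that order, so that the KO Y-only cells also lay above WT.

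Clock genes differed in opposite directions within their list. Per1, Per2 and Cry1, repressors of the clock, stood at 68.5, 20.95 and 15.3 CPM in KO and 35.7, 8.36 and 7.84 CPM in WT, and Nfil3 at 19.5 and 11.5 CPM. Nr1d1, the repressor REV-ERB alpha, stood at 18.4 CPM (15.9 to 21.2) in KO and 51.1 CPM (47.4 to 55.1) in WT, and Dbp at 14.9 and 22.6 CPM. Thus 4 of 15 members were higher and 2 lower (median -0.06), against 1.73% and 2.38% of all 7338 genes. Per1, Per2 and Nr1d1 passed 1.5-fold in the same directions in both kinds of KO cell over WT Xist-only cells and in endothelial barcodes. Nfil3 and Dbp did not pass it in KO Xist-only cells, and Cry1, Nfil3 and Dbp did not pass it at 10 CPM in endothelial barcodes, where Per1 stood at 137 CPM in KO and 88.9 CPM in WT and Nr1d1 at 8.83 and 38.3 CPM. The labels do not give the hour at which each mouse was killed, and its part in these values was not tested.

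Immediate early genes, which cell dissociation is known to induce, had 5 of 17 members lower and 2 higher in KO (median -0.29). Of all 7338 genes, 2.38% were lower and 1.73% higher in KO. The list median differed in direction between the kinds of KO cell. Over WT Xist-only cells, 5 of 17 were higher and 2 lower in KO Xist-only cells (median 0.18), against 6.91% and 10.9% of all genes. In KO Y-only cells 1 of 17 was higher and 6 lower (median -0.43), against 1.62% and 2.27% of all genes. Within KO, 6 of 15 were higher in Xist-only than in Y-only cells and none (0) lower (median 0.43). Of all 7211 genes, 5.14% were higher and 8.14% lower there. Fos, Fosb and Egr1 stood at 30.6, 7.20 and 35.7 CPM in KO and 59.1, 23.6 and 69.9 CPM in WT, while Klf6 and Nr4a1 stood at 143 and 19.0 CPM in KO and 93.2 and 11.9 CPM in WT. Fos stood at 59.5 CPM in KO Xist-only, 26.0 CPM in KO Y-only and 58.2 CPM in WT Xist-only cells. Klf2 stood at 9.54 CPM in KO and 22.2 CPM in WT, against 1906 and 1827 CPM in endothelial barcodes, and its log2 ratio of -1.22 in AT2 cells was -0.04 with CPM averaged over cells. Of 14 heat shock chaperones (median 0.13), the near-identical Hspa1a and Hspa1b were lower, at 20.02 and 21.2 CPM in KO and 53.4 and 46.0 CPM in WT. Xenobiotic and antioxidant enzymes had 2 higher and 2 lower members of 24 (median 0.01), against 1.73% and 2.38% of all 7338 genes. Among the higher was the monooxygenase Fmo2 at 63.5 CPM in KO and 38.1 CPM in WT. Relative to WT Xist-only cells, KO Xist-only cells had 6 higher and 4 lower of 25 (median 0.27), against 6.91% and 10.9% of all genes. KO Y-only cells had 3 higher and 4 lower of 24 (median -0.07), against 1.62% and 2.27% of all genes. Of 6 measured cell cycle genes Ccnd1 was lower, at 49.1 CPM in KO and 74.5 CPM in WT (median -0.09).

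The remaining lists had no member (0) past 1.5-fold between KO and WT AT2 cells. Their median log2 ratios were 0.17 for hypoxia and glycolysis (15 genes measured), 0.11 for oxidative phosphorylation (23), 0.10 for epithelial junctions and polarity (16), 0.02 for ion and water transport (10) and -0.06 for endoplasmic reticulum stress and folding (20). When set over WT Xist-only cells, KO Y-only cells had no member (0) of these 5 lists past 1.5-fold. KO Xist-only cells had 3 higher and 2 lower of 15 hypoxia genes, 3 higher of 16 junction genes and 3 higher and 2 lower of 13 transport genes. They had 2 lower of 19 stress genes and none (0) of the oxidative phosphorylation genes past 1.5-fold. Of all 7277 genes, 6.91% were higher and 10.9% lower in KO Xist-only cells, and the lower counts lay near that share. The epithelial sodium channel subunit Scnn1a, through which AT2 cells clear alveolar fluid, stood at 217 CPM in KO and 151 CPM in WT, a ratio of 1.43, and reached 323 CPM in KO Xist-only cells. Ddit3, a factor induced by misfolded protein, stood at 15.7 CPM in KO and 19.4 CPM in WT.

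AT2 cells varied among themselves, and several genes varied widely in both libraries, while Hbb-bs did so in KO alone. Among genes with at least 0.5 UMIs per thinned cell, the variance over the mean was highest for Hbb-bs, Scgb1a1, Lyz1, the predicted gene Gm42418, Lyz2, Sftpc, Malat1 and S100a6. For Hbb-bs, a haemoglobin gene, and Scgb1a1 in KO this rested on 1 cell, since without the highest cell the ratio fell to 0.924 for Hbb-bs, against 666 with it, and to 8.86 for Scgb1a1, against 308 with it. Lyz1 kept ratios of 80.5 in KO and 88.1 in WT without the highest cell, and the tenth of cells with most of it held 53.6% of its thinned UMIs in KO and 45.1% in WT. S100a6 had ratios of 34.2 in KO and 21.6 in WT.

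Correlations over thinned cells (518 in KO, 744 in WT, all from 1 library each and 1870 genes considered) placed S100a6 opposite Sftpc and Cxcl15, which the rule did not use. The KO correlations took in Xist-only and Y-only cells together, whose S100a6 levels differed as given above. S100a6 correlated with Lgals3 at 0.63 in KO and 0.66 in WT, with Sfn at 0.56 and 0.48 and with Anxa1 at 0.49 and 0.54. Against Cxcl15 it stood at -0.57 in KO and -0.61 in WT, and against Sftpc at -0.47 and -0.57. Sftpc went with Cxcl15 at 0.48 in KO and 0.50 in WT. Scd1 went with Fabp5, a fatty acid binding protein, at 0.42 in KO and 0.58 in WT and with Scd2 at 0.42 and 0.51. Lyz1 ran weakly against Lyz2, at -0.23 in KO and -0.25 in WT.

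Set beside endothelial barcodes of the same libraries, part of the AT2 differences was shared and part was not. In endothelial barcodes, 368 of 8703 genes (4.23%) were at least 1.5-fold higher and 640 (7.35%) lower in KO. Per1, Per2, Tnfrsf12a and Rgcc were higher in KO in both cell types, and Nr1d1, Fos, Fosb, Egr1, B2m and H2-K1 were lower in both. Insig1 stood at 10.7 CPM in KO and 18.9 CPM in WT endothelial barcodes. Class II, Chil1 and Etv5 transcripts were also lower in KO endothelial barcodes, but there they stood low, with Cd74 at 14.0 CPM in KO and 68.9 CPM in WT and Sftpc itself at 1494 and 2765 CPM. Lgals3, S100a6, Id3 and Fmo2 were higher in KO AT2 cells but lower in KO endothelial barcodes, as Id3 stood at 750.2 CPM in KO and 1238 CPM in WT endothelial barcodes. Id1 stood at 628 CPM in KO and 653 CPM in WT endothelial barcodes. None of these differences between cell types was tested.

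**Figure D5:**
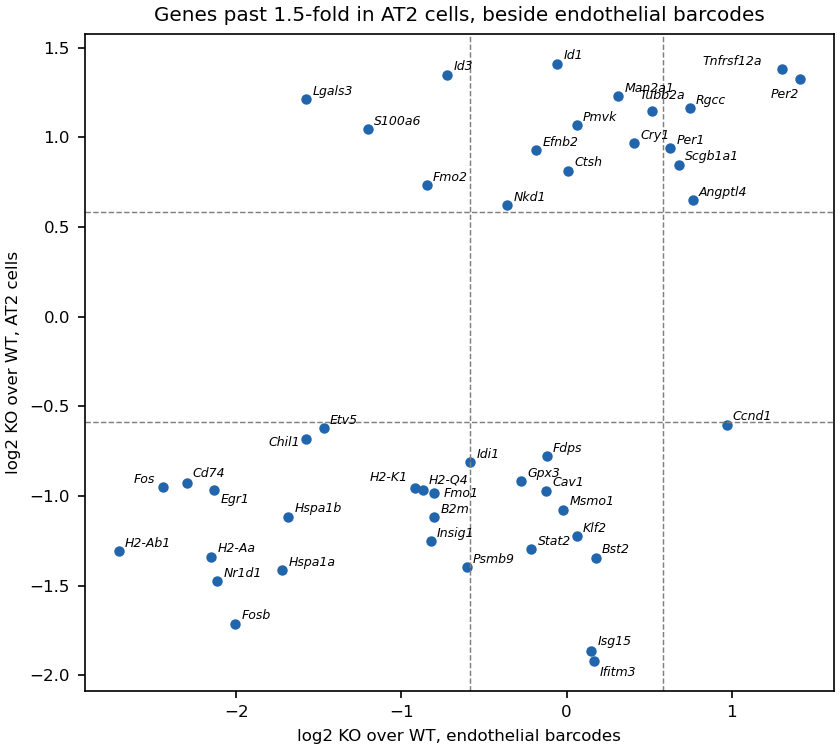
Log2 ratio KO over WT in AT2 cells (vertical axis) and in endothelial barcodes (horizontal axis). Shown are the genes named by rule that passed 1.5-fold in AT2 cells and had a mean of at least 10 CPM in both. Hbb-bs was left out of the plot, and dashed lines mark 1.5-fold. Lgals3, S100a6, Id3 and Fmo2 lie in the upper left corner and Ccnd1 in the lower right, higher in one cell type and lower in the other, while Ifitm3, Isg15 and Bst2 lie low for AT2 cells and within 1.5-fold for endothelial barcodes.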

How the data were processed

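The authors deposited, per library, a matrix of raw UMI counts by gene and barcode. The submitters' processing notes list Cell Ranger 3.0.1 and mm10, and the labels' protocols give the 10x Genomics 3' v3 chemistry. Counting settings are not given in the sources used here. Of 27998 genes, 27645 have their identifier in GENCODE M21, from which coordinates were taken. Barcodes were filtered and AT2 cells chosen as stated above. The members and gene lists were chosen with earlier results of these data known. UMIs were summed over the AT2 cells of a library and divided by their total (CPM), with exact Poisson intervals for levels, exact conditional binomial intervals for ratios and exact Clopper-Pearson intervals for shares, at 95% (scipy 1.17.1). A gene was called higher or lower at 1.5-fold and a mean of at least 10 CPM. No p-value was computed. Levels of 0 had a floor of 3 counts.

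Genes were named where their KO over WT ratio ranked among the 12 highest or 12 lowest past 1.5-fold with non-overlapping intervals at a mean of 50 CPM (40 higher and 30 lower qualified), leaving out markers of other cell types and sex-linked, haemoglobin, mitochondrial, ribosomal protein and predicted genes. Added were up to 4 members with the largest ratios from each of 23 lists (449 of 453 genes in the files), the genes of the membership rule, the AT2 markers, Acvrl1 and the 8 genes with the largest spread between cells. Other list members, and the genes with the largest differences between KO Xist-only and Y-only cells, were named after their values were seen. Some list members are counted with their list but not reported here by name. Scrublet (scanpy 1.11.5) called 12 KO and 37 WT doublets, of which 5 and 3 were AT2 cells and were kept. Ratios and their intervals were tested on simulated counts. Alternatives changed the barcode filter, the membership limits, doublet calls, depth, the weight of cells, scaling, the sex of the cells, the minimum level, the fold and the highest cells.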

Additional observations from a re-analysis of the deposited data

Results flagged for a closer look

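For 6 genes the KO and WT levels differed in opposite directions in AT2 cells and in endothelial barcodes of the same libraries. The log2 ratio of KO over WT in AT2 cells minus that in endothelial barcodes was 2.79 for Lgals3, 2.25 for S100a6, 2.07 for Id3 and 1.58 for Fmo2, which were higher in KO AT2 cells and lower in KO endothelial barcodes. For Ccnd1, lower in KO AT2 cells and higher in KO endothelial barcodes, it was -1.57. For Hbb-bs it was 5.37, where 5 cells held 95.1% of the UMIs in KO AT2 cells. With 1 library per group, none of these differences was tested.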

How the results depend on the processing

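Every value rests on 1 library per group, so a difference between KO and WT cannot be told apart from one between libraries or animals. No paired analysis was possible because each group had a single library. Of 65 named genes past 1.5-fold, 65 stayed past it in the same direction with median of ratios scaling, a total without surfactant genes, either other surfactant limit or doublet calls removed, 64 under either other barcode filter, 62 without endothelial UMIs or without the 5 highest cells, 61 after thinning, 59 in KO Y-only over WT Xist-only cells, and 58 with CPM averaged over cells, in Xist-only cells or with at least 2 Xist UMIs. The AT2 share was 39.8% in KO and 23.7% in WT with a limit of 1000 genes and 5% mitochondrial UMIs, 32.1% in KO and 16.8% in WT with no endothelial UMIs allowed, and 26.3% in WT with a limit of 200 genes and 20%. Genes at least 1.5-fold higher and lower in KO numbered 255 and 330 after thinning, 503 and 794 in Xist-only cells, 493 and 800 with at least 2 Xist UMIs, 43 and 32 at a mean of 50 CPM, 39 and 57 at 2-fold, and 980 and 1963 without a minimum beyond 3 UMIs, and 406 were higher with CPM averaged over cells. Some genes past 1.5-fold changed sign. Hbb-bs had a log2 ratio of -0.82 without endothelial UMIs, -0.77 in KO Y-only over WT Xist-only cells and -0.62 without the 5 highest cells. With CPM averaged over cells, Acvrl1 stood at 0.57, Cav1 at 0.15, Fmo1 at 0.29 and Gpx3 at 0.14. In Xist-only cells of both libraries, Angptl4 stood at -0.42, Cyp2f2 at -0.50, Fos at 0.030 and Scgb1a1 at -0.40, and with at least 2 Xist UMIs the first, the second and the last stood at -0.37 (Angptl4), -0.61 (Cyp2f2) and -0.41 (Scgb1a1). In KO Y-only over WT Xist-only cells, Akap5 stood at -0.033 and S100a6 at -0.12. The KO Y-only and 2-UMI settings were chosen after seeing the data, and the cause of these changes was not tested. Of 322 list medians, 24 changed sign, in 9 of 23 lists whose medians lay between -0.29 and 0.13. In Xist-only cells, immediate early genes stood at 0.18, heat shock chaperones at -0.05 and signals to the vasculature at 0.36 (0.15, -0.06 and 0.31 with at least 2 Xist UMIs). With CPM averaged over cells, signals to the vasculature stood at 0.17, clock genes at 0.11 and endoplasmic reticulum stress at 0.06.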
